A study of Homo sapiens with 4 samples.

Results

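The nuclear receptors other than NR3C2 were described across EBC-1, a MET-amplified lung cancer cell line, and 3 capmatinib-resistant lines made from it. The members were fixed by gene symbol, and 45 symbols of the superfamily were looked up among the 26364 symbols that each library lists. A receptor was kept for comparison when it reached 8.99 normalized units, a log2 level of about 3.3, in at least 1 library, which held for 35 of the 45 receptors and for 14892 of all symbols. Nuclear receptors are transcription factors, most of which change their activity when a small fat-soluble ligand (a hormone, a vitamin derivative, a fatty acid or a sterol) enters their ligand-binding domain. They bind DNA at copies of the hexamer AGGTCA or of related steroid response elements, as single proteins, as pairs of the same receptor, or as partners of the retinoid X receptors, and recruit coactivators or corepressors. In the lung and in its tumors they are studied in differentiation, lipid handling and the response to glucocorticoids.

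The resistant lines EBC-CR1, CR2 and CR3 (below CR1, CR2 and CR3) came from rising doses of capmatinib, a MET kinase inhibitor, that ended at 1.5 µmol/L for CR1, 2.2 µmol/L for CR2 and 2.4 µmol/L for CR3. They were then held at 1 µmol/L of the drug for over 2 months. CR1 was at passages 64 to 66, CR2 and CR3 were both at passages 81 to 83, and EBC-1, labelled parental, was at passages 35 to 37, so that resistance, drug exposure and time in culture cannot be told apart. Each line gave 1 library, made from 500 ng of total RNA with a kit that reads the 3′ ends of transcripts. Neither independent selection of each line nor the presence of capmatinib at harvest is stated in the labels. The column headers inside the deposited tables give CR1 the number 3 and CR3 the number 1, against the sample labels. The names used here follow the sample labels, and the counts over all 3 resistant lines do not depend on the numbering.

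The estimated depths were 21.4, 19.2 and 23.2 M reads in CR1, CR2 and CR3 and 35.7 M reads in EBC-1. All 10 markers of epithelium were above the threshold in every library. Of the 10 squamous markers, the keratins KRT5, KRT6A and KRT14 and the desmosomal gene PKP1 were listed at 0 in all 4 libraries, and DSG3 and DSC3 stayed under the threshold. The list summed to 2269, 9363 and 4066 units in CR1, CR2 and CR3, against 2467 in EBC-1. TP63, SOX2 and SERPINB13 were 2-fold or more higher in all 3 resistant lines, which is 3 of the 4 markers kept (75.0%, against 6.79% of all symbols kept). Of these, TP63 and SERPINB13 passed the threshold only through a resistant line and so had to be higher in some resistant line. TP63, a squamous transcription factor, was at 6.65, 11.32 and 8.43 in CR1, CR2 and CR3 and was listed at 0 in EBC-1. SOX2, another such factor, was at 9.33, 9.25 and 10.85 in CR1, CR2 and CR3, against 6.45 in EBC-1. SERPINB13, a squamous protease inhibitor, was at 6.05, 2.39 and 6.74 in CR1, CR2 and CR3 and listed at 0 in EBC-1, and PERP, a desmosomal gene, was at 10.51, 12.60 and 10.78, against 11.22. In EBC-1, 2 of the 10 squamous markers reached the threshold and 6 were listed at 0, TP63 among them. The labelled squamous type was thus borne by few of the listed markers in EBC-1, and by none of the 3 keratins in any library. Single markers of other types were also 2-fold or more higher in all 3 lines. They were ELF3 (1 of 10 epithelial markers kept), NKX2-1 (1 of 2 alveolar and adenocarcinoma), ITGB2 (1 of 2 leukocyte) and COL1A1 (1 of 1 fibroblast). NKX2-1 passed the threshold only through a resistant line. In these lists, 2 epithelial markers and 1 leukocyte marker were lower in all 3 lines. The 8 erythroid markers summed to 19033 units in CR1, 27.8 in CR2 and 0 in CR3, against 0.75 in EBC-1. The part of these marker differences in the receptor values was not tested. With bulk RNA, fewer cells that make a transcript and less transcript per cell cannot be told apart.

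Levels below are the deposited log2 values, and a difference is the level in a resistant line minus the level in EBC-1 on the same log2 scale, so that 1 means 2-fold. The receptors listed at 0 in every library were RXRG, NR1I2 (the pregnane X receptor), ESRRB, NR2E1, NR5A1 (steroidogenic factor of the adrenal and gonads), NR0B1 and NR0B2. RORB reached 0.81 in CR2, HNF4G reached 1.46 in CR1 and PGR, the progesterone receptor, reached 2.39 in CR3, and each was listed at 0 in the other 3 libraries. PGR was the receptor just outside the threshold, and HNF4A, at 3.49 in CR3, was the one just inside it. Of the 35 receptors kept, 28 reached the threshold in EBC-1 itself, and the other 7 passed only through a resistant line. Those 7 had to be higher in some resistant line, and counts that include them are read with that in mind.

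**Figure D1:**
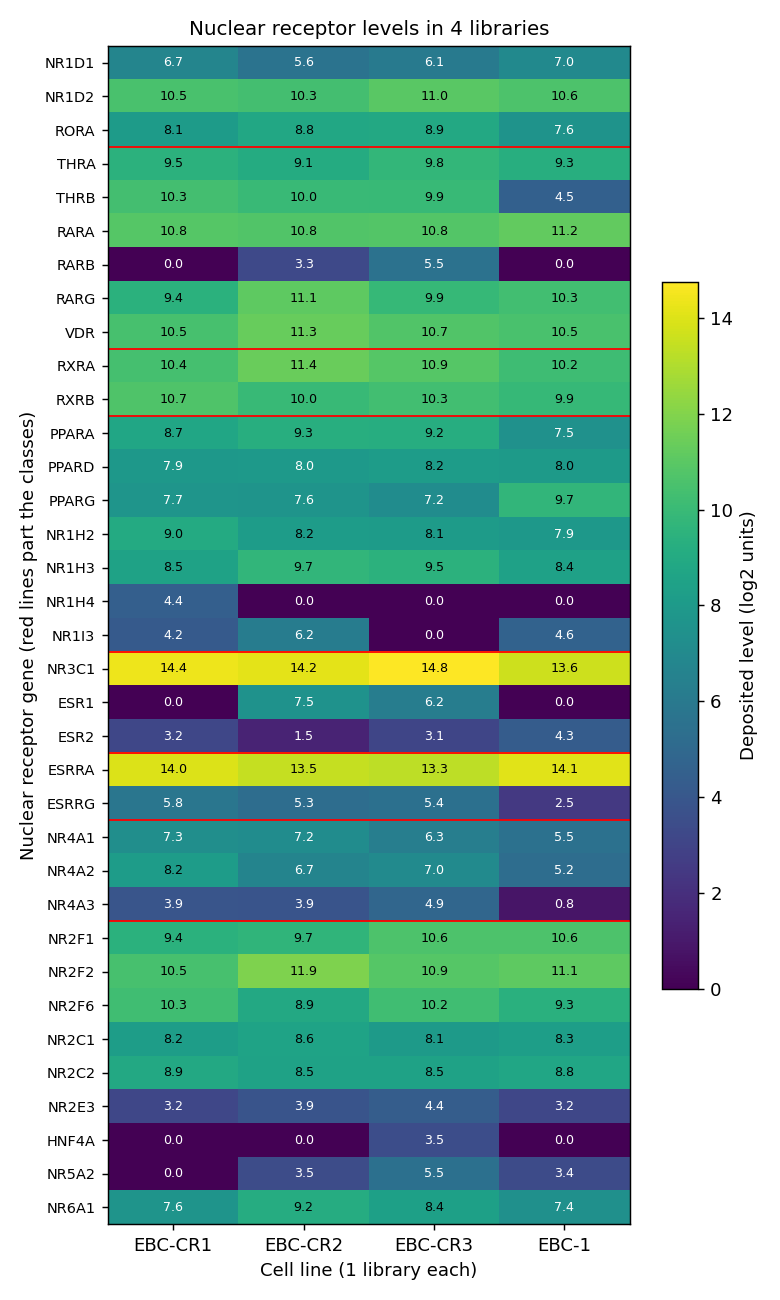
Deposited log2 levels of the 35 nuclear receptors kept, in rows by class (red lines part the classes), in CR1, CR2, CR3 and EBC-1, 1 library each. The row of THRB is dark in EBC-1 alone, at 4.54, and NR1H4, HNF4A, ESR1 and RARB are among the rows with cells at 0, where the gene was listed at 0.

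The counts over all 35 receptors include those 7. In CR1, 8 of 35 receptors were 2-fold or more higher (13.8% of all symbols were) and 4 were 2-fold or more lower (14.5%). In CR2 the counts were 13 higher (16.8%) and 3 lower (18.6%), and in CR3 they were 13 higher (16.2%) and 3 lower (16.6%). Over the 28 receptors past the threshold in EBC-1, CR1 had 5 higher and 4 lower (9.3% and 14.9% of the 13543 symbols past it there). For CR2 these counts were 9 and 3 (12.7% and 19.4%), and for CR3 they were 7 and 3 (11.5% and 17.4%). The 5 receptors THRB, PPARA, ESRRG, NR4A2 and NR4A3 were 2-fold or more higher in all 3 lines, which is 14.3% of the receptors against 6.79% of all symbols. PPARG and ESR2 were 2-fold or more lower in all 3 lines, which is 5.71% against 5.5%. Without the 7 receptors that passed only through a resistant line, THRB, PPARA and NR4A2 remained higher among 28 (10.7%, against 4.25% of the 13543 symbols). Both PPARG and ESR2 remained lower (7.14% against 6.05%), but ESR2 passed the threshold only through EBC-1 and so had to be lower in the resistant lines. Keeping receptors by their level in EBC-1 favours lower calls, so the lower counts over the 28 are read with that in mind. The median difference over the 28 was 0.03, 0.30 and 0.28 in CR1, CR2 and CR3, beside medians of -0.12, -0.13 and -0.14 over the 13543 symbols. Counting differences of any size, 13 receptors were higher in all 3 lines (25.7% of all symbols were) and 5 were lower (31.7%). Within 2-fold of EBC-1 in all 3 lines were 12 of the 35 receptors, or 34.3%, against 47.1% of all symbols. The 4 receptors RARB, NR1H4, ESR1 and HNF4A were listed at 0 in EBC-1 and passed the threshold in a resistant line, as did 3.08% of all symbols kept.

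The resistant lines, as 1 phenotype (n = 3), were compared with EBC-1 (n = 1) with limma and Benjamini-Hochberg adjustment over all 14892 symbols. At an adjusted p of 0.05, THRB was the single receptor past the threshold. It was 1 of 25 symbols called higher (0.168% of those tested), and 0 receptors were called lower, where 1 symbol in all was (0.00672%). At an unadjusted p under 0.05, limma had 6 receptors of 1565 symbols, THRB, PPARA, ESRRG, NR4A2 and NR4A3 being higher and PPARG lower. The 6 receptors are of 35 kept, and the 1565 symbols are of the 14892 tested. Of the 6, ESRRG and NR4A3 passed the level threshold only through a resistant line and so had to be higher in some resistant line. Since EBC-1 is 1 library, limma takes its spread to be that of the resistant lines. The p-values reflect how far these 3 lines scatter, together with the variance trend over all symbols, and no spread of EBC-1.

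**Figure D2:**
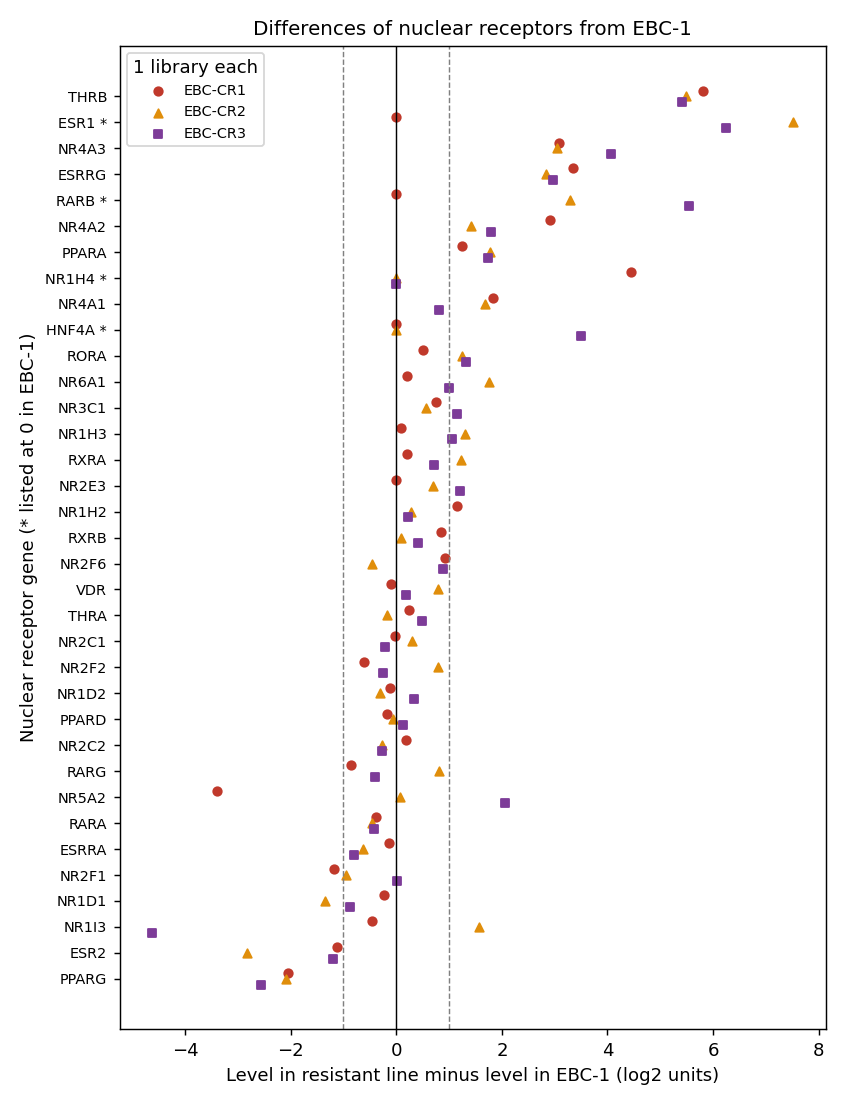
Difference of each of the 35 nuclear receptors from EBC-1 on the log2 scale (x axis) in CR1, CR2 and CR3, 1 library each, ordered by the mean difference, with dashed lines at 2-fold and a star beside the 4 genes listed at 0 in EBC-1, whose points are the level itself. THRB sits at 5.41 to 5.81 in all 3 lines and PPARG at -2.05 to -2.56, while most points lie between the dashed lines.

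Among the receptors for thyroid hormone, THRB rose in the resistant lines and THRA stayed within 2-fold of EBC-1. THRA and THRB encode the alpha and beta thyroid hormone receptors, which bind triiodothyronine and act mostly as partners of the retinoid X receptors. THRB was at 10.34, 10.03 and 9.95 in CR1, CR2 and CR3, against 4.54 in EBC-1. Each resistant level lay above 9.9 and the parental level rested on an estimated 27 reads, against 1109, 799 and 913 reads in CR1, CR2 and CR3. THRB was 55.9-fold, 44.9-fold and 42.4-fold higher in CR1, CR2 and CR3 than in EBC-1, and the 95% counting intervals of the log2 ratio ran from 5.32 to 6.48, from 5.0 to 6.16 and from 4.92 to 6.08. With limma the log2 fold was 5.57 ± 0.38 (SE), with an adjusted p of 0.028, higher in 3 of 3 lines. That call rests on the variance trend and on all 3 lines. The adjusted p was 0.087 in limma without the trend and 0.630, 0.203 and 0.909 without CR1, CR2 and CR3, while the fold stayed between 5.45 and 5.65. THRA was at 9.50, 9.09 and 9.76 in CR1, CR2 and CR3, against 9.26 in EBC-1, and so differed by less than 0.5 in every line. THRA and NR1D1 overlap at their 3′ ends on opposite strands, and without stated strand handling their reads cannot be told apart. No such overlap at the 3′ end of THRB was found in the annotation.

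The start sites of THRB are shown because this gene has the largest shared difference of the receptors, with the caution that 3′ libraries do not tell which start was used. The windows are the 250 bases before a start, from RefSeq on GRCh38.p14, on the minus strand at chr3:24495709-24495958 (window 1) and chr3:24494851-24495100 (window 2), and capitals mark the TATA box letters TATAAA.
THRB window 1: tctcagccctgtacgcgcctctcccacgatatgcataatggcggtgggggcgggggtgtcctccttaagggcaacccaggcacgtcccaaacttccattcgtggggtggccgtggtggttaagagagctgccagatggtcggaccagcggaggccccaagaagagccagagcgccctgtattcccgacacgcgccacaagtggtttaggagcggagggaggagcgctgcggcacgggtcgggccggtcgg
THRB window 2: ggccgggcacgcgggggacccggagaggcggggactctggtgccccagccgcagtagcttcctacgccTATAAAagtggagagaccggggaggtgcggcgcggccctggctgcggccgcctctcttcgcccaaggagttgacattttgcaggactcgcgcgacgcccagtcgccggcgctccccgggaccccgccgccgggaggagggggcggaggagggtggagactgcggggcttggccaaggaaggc
Window 1 held no TATAAA and window 2 held 1. On either strand, TATAAA stood in 10.7% of 35116 such windows in the genome. The match is a description of these letters only.

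The retinoic acid receptors RARA, RARB and RARG bind all-trans retinoic acid. RARA was at 10.84, 10.77 and 10.82 in CR1, CR2 and CR3, against 11.24 in EBC-1, a difference of -0.39 to -0.46 in each line. RARG was at 9.45, 11.11 and 9.89 in CR1, CR2 and CR3, against 10.30 in EBC-1, so CR2 lay above EBC-1 and the other lines lay below it. RARB, the subtype whose own promoter is a classic retinoic acid target, was listed at 0 in CR1, at 3.29 in CR2 and at 5.54 in CR3, against a listing at 0 in EBC-1. The RARB level rested on an estimated 8 reads in CR2 and 48 in CR3, and no fold is given against a gene listed at 0. RARB overlaps TOP2B at the 3′ end on the opposite strand. TOP2B, a topoisomerase, was at 9.82, 9.04 and 9.40 in CR1, CR2 and CR3, against 8.85 in EBC-1. Whether reads of TOP2B were counted for RARB was not tested.

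RARB has 4 windows in the table, and the first is shown because it alone holds the element described here, while windows 2 to 4 do not. It comes from RefSeq on GRCh38.p14, chr3:25428013-25428262 on the plus strand. Capitals mark GTTCAC, any 5 bases and GTTCAC again, which is the RARB spelling of the spaced pair that retinoic acid receptors are known to bind.
RARB window 1: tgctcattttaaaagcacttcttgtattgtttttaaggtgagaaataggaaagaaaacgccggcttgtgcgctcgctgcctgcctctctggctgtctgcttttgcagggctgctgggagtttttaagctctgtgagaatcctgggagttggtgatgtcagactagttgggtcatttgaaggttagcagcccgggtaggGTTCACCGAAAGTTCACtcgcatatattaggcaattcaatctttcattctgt
On either strand, this spelling of the pair stood in 4 of 35116 windows, or 0.0114%, and RARB was the single kept receptor with it. Since the letters searched are those of RARB itself, its match was fixed in advance. The share holds for this exact spelling and not for other spellings of the pair. VDR, the receptor of active vitamin D, was at 10.45, 11.34 and 10.73 in CR1, CR2 and CR3, against 10.55 in EBC-1, within 2-fold in every line.

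The retinoid X receptors are the common partners of the thyroid, retinoic acid, vitamin D, PPAR and LXR receptors. RXRA was at 10.39, 11.40 and 10.89 in CR1, CR2 and CR3, against 10.18 in EBC-1, and passed 2-fold in CR2 alone. RXRB was at 10.71, 9.96 and 10.28 in CR1, CR2 and CR3, against 9.86 in EBC-1, within 2-fold in every line. Both partners were thus present in all 4 libraries, while RXRG was listed at 0 in each.

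Among the lipid sensors, PPARA was higher and PPARG lower in every resistant line, with PPARD close to EBC-1. The PPARs bind fatty acids and their derivatives. PPARA is best known for fatty acid oxidation, PPARG for lipid storage and adipocyte differentiation, and PPARD for oxidation in many tissues. PPARA was at 8.74, 9.27 and 9.22 in CR1, CR2 and CR3, against 7.49 in EBC-1, which is a difference of 1.25, 1.78 and 1.73. Its counting intervals ran from 1.02 to 1.49, from 1.57 to 2.02 and from 1.52 to 1.96, and limma gave a log2 fold of 1.59 ± 0.41 (SE) with an adjusted p of 0.340. PPARG was at 7.68, 7.65 and 7.17 in CR1, CR2 and CR3, against 9.73 in EBC-1. All 3 resistant levels lay below EBC-1, by 4.13-fold, 4.23-fold and 5.89-fold, with counting intervals of the log2 ratio from -2.29 to -1.82, from -2.34 to -1.85 and from -2.83 to -2.31. With limma the log2 fold of PPARG was -2.23 ± 0.43 (SE), with an adjusted p of 0.236, so that neither PPARA nor PPARG passed the test. PPARD was at 7.86, 7.98 and 8.16 in CR1, CR2 and CR3, against 8.04 in EBC-1.

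For PPARG, the receptor with the largest shared difference downward, the window of its first RefSeq start is shown (GRCh38.p14, chr3:12287118-12287367, plus strand), with the receptor hexamer AGGTCA in capitals.
PPARG window 1: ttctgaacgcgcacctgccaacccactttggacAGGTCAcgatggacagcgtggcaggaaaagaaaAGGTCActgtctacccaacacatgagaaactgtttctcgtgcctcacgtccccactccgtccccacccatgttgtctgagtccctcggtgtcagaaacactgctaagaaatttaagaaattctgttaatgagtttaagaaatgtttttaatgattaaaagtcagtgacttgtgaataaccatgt
It held 2 copies of AGGTCA, and 12.1% of 35116 windows held at least 1 copy on either strand. Of the 32 kept receptors with a window in the table, 8 had the hexamer in at least 1 window, or 25.0%, against 14.6% of the 27305 genes in the table. PPARG itself has 6 windows, of which the first 3 held the hexamer, and receptors with more windows have more chances to hold a match.

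The liver X receptors NR1H2 and NR1H3 sense oxysterols and drive cholesterol efflux genes. NR1H2 was at 9.02, 8.15 and 8.08 in CR1, CR2 and CR3, against 7.87 in EBC-1, and was past 2-fold in CR1 alone. NR1H3 showed the other order, at 8.53, 9.73 and 9.49 in CR1, CR2 and CR3, against 8.44 in EBC-1, past 2-fold in CR2 and CR3. NR1H4, the bile acid receptor, was at 4.44 in CR1, from an estimated 18 reads, and was listed at 0 in CR2, CR3 and EBC-1. CR1 is also the library with erythroid transcripts, whose part in this result was not tested. NR1I3, the constitutive androstane receptor of drug metabolism in liver, was at 4.17 in CR1, 6.20 in CR2 and 0 in CR3, against 4.63 in EBC-1. CR2 thus lay above EBC-1 and CR3 was listed at 0. The counting interval of the log2 ratio of NR1I3 ran from -1.49 to 0.46 in CR1, which includes no difference, and from 0.95 to 2.30 in CR2. NR1I3 overlaps TOMM40L, a mitochondrial import gene, at the 3′ end on the opposite strand, and TOMM40L was at 7.51, 7.55 and 7.74 in CR1, CR2 and CR3, against 8.03 in EBC-1.

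**Figure D3:**
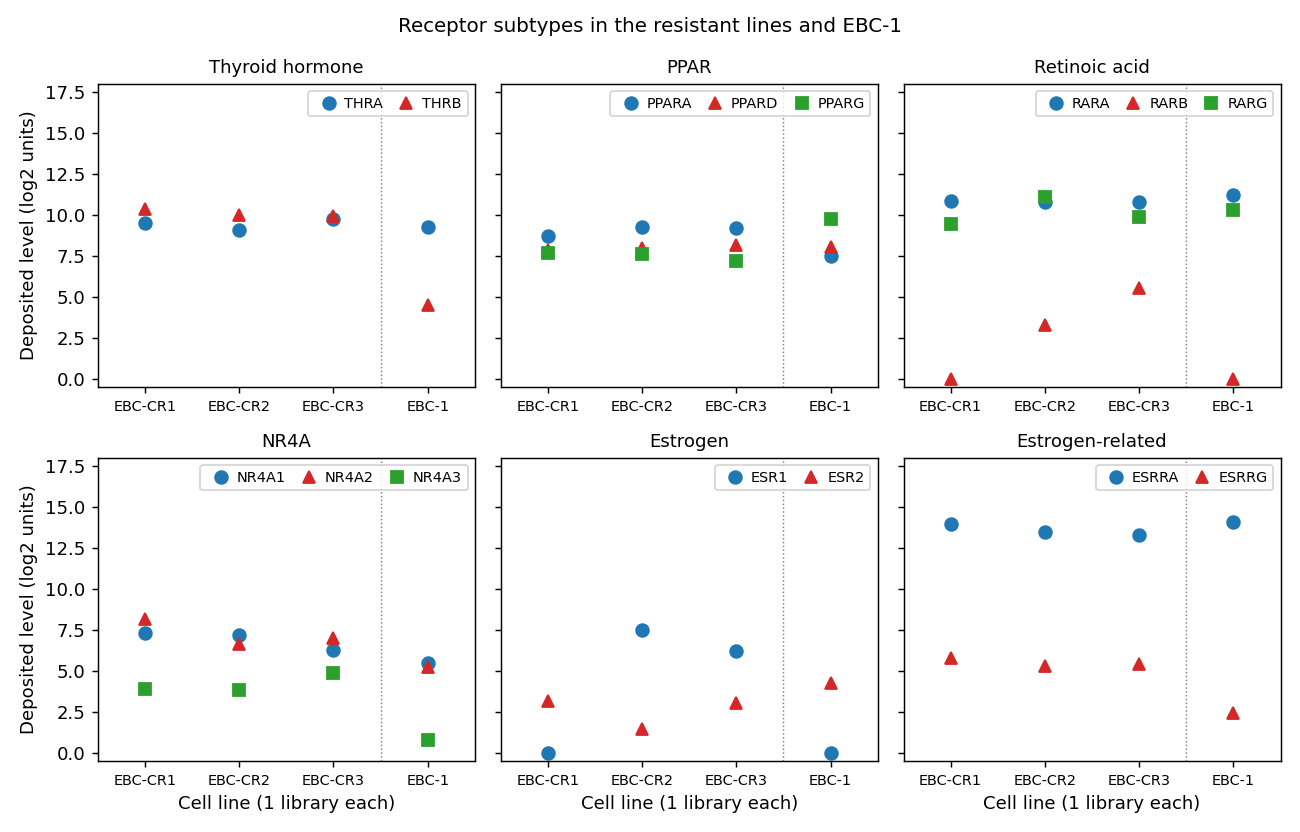
Deposited log2 levels (y axis) of the subtypes of 6 receptor families in CR1, CR2, CR3 and, right of the dotted line, EBC-1, 1 library each. THRB is 5.41 or more higher in each resistant line than in EBC-1 while THRA differs by less than 0.5, PPARG is 2.05 or more lower in each resistant line, and ESR1 is off 0 in CR2 and CR3.

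Of the steroid receptors, the glucocorticoid receptor NR3C1 was higher in each resistant line, past 2-fold in CR3 alone. It was at 14.37, 14.18 and 14.76 in CR1, CR2 and CR3, against 13.62 in EBC-1, which is 1.68-fold, 1.48-fold and 2.21-fold higher, with an adjusted p of 0.543 in limma. The estrogen receptors alpha (ESR1) and beta (ESR2) differed in direction, with ESR1 above EBC-1 in CR2 and CR3 and ESR2 below it in all 3 lines. ESR1 was listed at 0 in CR1, at 7.52 in CR2 and at 6.25 in CR3, and at 0 in EBC-1, with an estimated 144 reads in CR2 and 76 in CR3. ESR1 overlaps SYNE1, a nuclear envelope gene, at the 3′ end on the opposite strand, and SYNE1 was at 0, 2.39 and 3.49 in CR1, CR2 and CR3, against 6.39 in EBC-1. Whether reads of SYNE1 were counted for ESR1 was not tested. ESR2 was at 3.17, 1.46 and 3.09 in CR1, CR2 and CR3, against 4.29 in EBC-1, from an estimated 7, 2 and 9 reads against 22. Its counting interval ran from -2.68 to 0.07 in CR1, which includes no difference, from -6.54 to -1.38 in CR2 and from -2.61 to -0.13 in CR3, and the adjusted p was 0.663 in limma. ESR2 overlaps SYNE2, another nuclear envelope gene, in the same way, and SYNE2 was at 10.75, 11.93 and 12.07 in CR1, CR2 and CR3, against 11.39 in EBC-1.

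The estrogen-related receptors are orphans tied to mitochondrial and oxidative genes. ESRRA was at 13.96, 13.46 and 13.29 in CR1, CR2 and CR3, against 14.10 in EBC-1, lower by less than 2-fold in each line. It overlaps TRMT112 at the 3′ end on the opposite strand, which was at 14.72, 13.94 and 14.03 in CR1, CR2 and CR3, against 15.01 in EBC-1, so both genes were lower in all 3 lines and their reads cannot be told apart. ESRRG was at 5.81, 5.29 and 5.43 in CR1, CR2 and CR3, against 2.46 in EBC-1, from an estimated 48, 32 and 45 reads against 5. All 3 resistant levels lay above EBC-1, by 10.2-fold, 7.14-fold and 7.86-fold on the scale of the deposited values. ESRRG passed the threshold only through a resistant line and so had to be higher in some resistant line. The counting intervals of the log2 ratio ran from 2.29 to 5.30, from 1.72 to 4.80 and from 1.90 to 4.92, and the limma log2 fold was 3.05 ± 0.68 (SE) with an adjusted p of 0.285.

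The NR4A receptors are immediate early genes, induced within minutes to hours by growth factors and stress, and act without a known natural ligand. NR4A1 was at 7.31, 7.17 and 6.29 in CR1, CR2 and CR3, against 5.48 in EBC-1, past 2-fold in CR1 and CR2 but not in CR3. NR4A2 was at 8.16, 6.67 and 7.04 in CR1, CR2 and CR3, against 5.25 in EBC-1, which is 7.51-fold, 2.68-fold and 3.46-fold higher. NR4A3 was at 3.88, 3.86 and 4.88 in CR1, CR2 and CR3, against 0.81 in EBC-1, and its parental level rested on an estimated 1 read, against 12, 12 and 31. All 9 resistant levels of the 3 genes lay above their own level in EBC-1. NR4A3, however, passed the threshold only through a resistant line and so had to be higher in some resistant line. With limma the log2 folds were 1.44 ± 0.62 (SE) for NR4A1, 2.04 ± 0.73 for NR4A2 and 3.40 ± 0.97 for NR4A3, with adjusted p of 0.514, 0.450 and 0.386, so none passed. The counting interval of the NR4A3 log2 ratio ran from 1.44 to 9.61 in CR1, from 1.41 to 9.59 in CR2 and from 2.66 to 10.6 in CR3.

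NR4A3 is shown with the window of its RefSeq start (GRCh38.p14, chr9:99821635-99821884, plus strand), with capitals for TGACG, or CGTCA where it lies on the other strand, the core of the element bound by cyclic AMP responsive factors.
NR4A3 window 1: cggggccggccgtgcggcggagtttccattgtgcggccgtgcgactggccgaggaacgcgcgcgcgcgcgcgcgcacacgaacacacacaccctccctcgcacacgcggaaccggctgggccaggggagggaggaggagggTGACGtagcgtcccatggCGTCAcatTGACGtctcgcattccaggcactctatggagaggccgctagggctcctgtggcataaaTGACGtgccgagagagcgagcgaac
The window held 4 matches, and 21.2% of 35116 windows held at least 1. The full palindrome TGACGTCA, found in 1.65% of windows, is not in it. Of the 32 kept receptors with a window, 10 had TGACG and 1 had the palindrome in at least 1 window, against 24.9% and 2.03% of the 27305 genes.

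Of the receptors in the circadian clock, NR1D1 and NR1D2 encode the heme-binding repressors REV-ERB alpha and beta, and RORA is the activator that competes with them for the same elements. NR1D1 was at 6.74, 5.62 and 6.10 in CR1, CR2 and CR3, against 6.98 in EBC-1, past 2-fold lower in CR2 alone. NR1D2 was at 10.51, 10.32 and 10.97 in CR1, CR2 and CR3, against 10.63 in EBC-1. RORA was at 8.11, 8.84 and 8.92 in CR1, CR2 and CR3, against 7.60 in EBC-1, past 2-fold higher in CR2 and CR3. RORA shares its 3′ end with the antisense gene RORA-AS1, which reached 4.88 at most. Neither repressor was past 2-fold higher in any line.

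None of the 9 orphan receptors kept was 2-fold or more apart from EBC-1 in 1 direction in all 3 lines. NR2F1 and NR2F2, the COUP transcription factors of organ patterning, differed in order: NR2F1 was at 9.44, 9.68 and 10.65 in CR1, CR2 and CR3, against 10.63 in EBC-1, and NR2F2 was at 10.49, 11.89 and 10.85, against 11.10. The antisense gene NR2F1-AS1 was at 9.41, 8.85 and 10.13 in CR1, CR2 and CR3, against 10.85 in EBC-1. NR2F1 was thus lowest in CR1, and NR2F2 was highest in CR2. NR2F6 was at 10.26, 8.90 and 10.23 in CR1, CR2 and CR3, against 9.35 in EBC-1, so CR2 alone lay below EBC-1. NR2C1 and NR2C2, the testicular receptors that repress by competing for hexamer pairs, stayed within 0.31 of EBC-1 in every line, at 8.24, 8.57 and 8.05 against 8.26, and at 8.93, 8.48 and 8.48 against 8.75. At its 3′ end NR2C2 overlaps MRPS25, a mitochondrial ribosomal gene, on the opposite strand. NR6A1, a repressor of germ cell and early embryonic genes, was at 7.63, 9.17 and 8.41 in CR1, CR2 and CR3, against 7.42 in EBC-1, past 2-fold in CR2 alone. NR2E3, known from the photoreceptors of the retina, was at 3.17, 3.86 and 4.38 in CR1, CR2 and CR3, against 3.17 in EBC-1, from at most an estimated 22 reads. NR5A2, a phospholipid-binding receptor of liver and pancreas, was listed at 0 in CR1 and was at 3.46 in CR2 and 5.46 in CR3, against 3.39 in EBC-1, from an estimated 0, 9 and 46 reads against 11. HNF4A, a liver and gut factor, was listed at 0 in CR1, CR2 and EBC-1, and its level of 3.49 in CR3 rested on an estimated 12 reads. NR2E3, NR5A2 and HNF4A each had their highest level in CR3.

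The 6 receptors RARB, NR1H4, NR1I3, ESR1, HNF4A and NR5A2 spanned 4-fold or more between the resistant lines, which is 17.1% of the receptors against 16.0% of all symbols. All 6 were listed at 0 in at least 1 resistant line. NR1I3 and NR5A2 also went past 2-fold in opposite directions in a pair of lines, as did 3.24% of all symbols. Of the 35 receptors, 9 were 2-fold or more higher and 5 lower in CR2 than in CR1 (15.9% and 16.8% of all symbols). For CR3 over CR1 the counts were 7 and 4 (8.25% and 7.96%), and for CR3 over CR2 they were 6 and 4 (14.6% and 13.6%). RARG was 1.66 higher and NR2F2 1.41 higher in CR2 than in CR1, with counting intervals from 1.53 to 1.80 and from 1.31 to 1.50, and NR2F6 was 1.36 lower, with an interval from -1.54 to -1.19. These differences compare 1 library with 1 library and have no replicate check.

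Genes that carry the signals of the receptors were taken from 12 lists written by pathway. Of the 22 coactivators kept, 2 were 2-fold or more higher in all 3 lines and 0 lower, against 6.79% and 5.5% of all symbols. They were NCOA7, at 12.01, 13.53 and 11.78 in CR1, CR2 and CR3 against 9.52 in EBC-1, and PNRC1, at 8.33, 8.83 and 8.68 against 6.61. Of the 16 corepressors, TBL1XR1, a subunit of the NCOR complex, was at 12.20, 12.16 and 12.53 in CR1, CR2 and CR3 against 10.59 in EBC-1, and NRIP1 was at 8.93, 10.10 and 8.75 against 7.43. HR, a corepressor of the thyroid hormone and vitamin D receptors, was lower, at 3.3, 4.07 and 0 in CR1, CR2 and CR3 against 6.60 in EBC-1. The medians of the coactivators were 0.10, 0.16 and 0.10 and those of the corepressors 0.08, -0.15 and 0.17 in CR1, CR2 and CR3, beside -0.06, -0.06 and -0.08 over all symbols.

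In the thyroid hormone list, 4 of 10 genes kept were 2-fold or more higher in all 3 lines and 1 was lower, or 40.0% and 10.0%, against 6.79% and 5.5% of all symbols. DIO2, the deiodinase that makes the active hormone from its precursor, was at 9.35, 8.13 and 10.51 in CR1, CR2 and CR3, against 4.86 in EBC-1. BCL3, a known thyroid hormone target, was at 10.62, 10.71 and 10.51 in CR1, CR2 and CR3, against 8.69 in EBC-1. HR, a classic target of the same receptors, was the 1 lower gene, and the transporter SLC16A10, which passed the threshold only through a resistant line, was at 3.75, 2.39 and 3.29 in CR1, CR2 and CR3 and listed at 0 in EBC-1. None of these passed limma, with an adjusted p of 0.264 for DIO2. In the glucocorticoid list, 4 of 16 genes were higher and 1 was lower, or 25.0% and 6.25%, against 6.79% and 5.5%. SGK1, a kinase induced by glucocorticoids, rose, at 11.34, 11.26 and 11.04 in CR1, CR2 and CR3 against 4.63 in EBC-1, with a limma log2 fold of 6.59 ± 0.35 (SE) and an adjusted p of 0.023. As with THRB, that call was lost in limma without the trend (adjusted p = 0.085) and without CR1, CR2 or CR3 (adjusted p = 0.630, 0.203 and 0.909), while the fold stayed between 6.52 and 6.68. DUSP1, a phosphatase of the MAP kinases, was at 9.68, 9.58 and 8.53 in CR1, CR2 and CR3, against 6.56 in EBC-1. NFKBIA, the inhibitor of NF-kappa-B, was at 14.62, 14.63 and 14.02, against 12.25, and KLF9, which is in the thyroid list too, was at 7.38, 6.80 and 7.36, against 5.33. These 4 genes were above EBC-1 in each resistant line. The lower gene, CRISPLD2, was at 4.27, 5.19 and 4.38 in CR1, CR2 and CR3, against 6.49 in EBC-1. FKBP5, another glucocorticoid target, was at 9.10, 6.69 and 8.83 in CR1, CR2 and CR3, against 8.62 in EBC-1, and, like CRISPLD2, was chosen after its values were seen, here as a member of the list that did not share the direction.

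In the retinoid list of 17 genes, 2 were 2-fold or more higher and 3 lower in all 3 lines, or 11.8% and 17.6%, against 6.79% and 5.5% of all symbols. ALDH1A3, which makes retinoic acid, was at 12.10, 13.91 and 12.34 in CR1, CR2 and CR3, against 9.58 in EBC-1. CRABP2, which carries retinoic acid to its receptors, was at 8.02, 7.37 and 8.48, against 10.55, and FABP5, a fatty acid carrier, was at 0, 2.00 and 0, against 6.68. CYP26A1, which breaks retinoic acid down and is induced by it, was at 4.60, 2.39 and 4.17 in CR1, CR2 and CR3 and listed at 0 in EBC-1. FABP5 passed the threshold only through EBC-1 and so had to be lower in the resistant lines. CYP26A1 passed it only through a resistant line and so had to be higher in some resistant line. Among other retinoid enzymes, none of the following was 2-fold apart from EBC-1 in 1 direction in all 3 lines. CYP26B1 was at 0, 5.37 and 3.49 in CR1, CR2 and CR3, against 4.63 in EBC-1, and RDH10, a retinol dehydrogenase, was at 7.14, 9.78 and 6.74, against 7.90. RDH11 was at 11.42, 12.32 and 11.17 in CR1, CR2 and CR3, against 12.37 in EBC-1, and ALDH1A1 was at 0, 0 and 3.49, against 0.81. These 4 enzymes were chosen after their values were seen. None of the genes of the list passed limma. Of the 10 vitamin D genes, 2 were higher and 0 lower, or 20.0% and 0%, against 6.79% and 5.5%. IGFBP3, which binds insulin-like growth factors, was at 15.04, 13.16 and 15.43 in CR1, CR2 and CR3, against 9.48 in EBC-1. DUSP10, a MAP kinase phosphatase, was at 7.61, 7.67 and 8.09, against 6.11. Both were above EBC-1 in each resistant line. In the PPAR list, 2 of 17 genes were higher and 1 was lower, or 11.8% and 5.88%, against 6.79% and 5.5%, and both higher ones passed the threshold only through a resistant line. VNN1, a pantetheinase of fatty acid metabolism, was at 9.96, 7.74 and 9.48 in CR1, CR2 and CR3 and listed at 0 in EBC-1. PLIN2, a lipid droplet coat protein, was at 1.46, 4.73 and 4.54 in CR1, CR2 and CR3 and listed at 0 in EBC-1. SLC25A20, the carnitine carrier of mitochondria, was at 5.62, 5.85 and 5.37, against 7.32. The PPAR list thus held members in both directions. In the LXR list, 1 of 12 genes was higher and 1 was lower, or 8.33% each, against 6.79% and 5.5%. LPL, a lipase of that list, was at 8.36, 6.35 and 8.58 in CR1, CR2 and CR3, against 0.81 in EBC-1. APOC1, from the same list, was at 2.95, 2.00 and 1.81, against 4.17. LPL passed the threshold only through a resistant line and so had to be higher in some resistant line. APOC1 passed it only through EBC-1 and so had to be lower in the resistant lines.

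**Figure D4:**
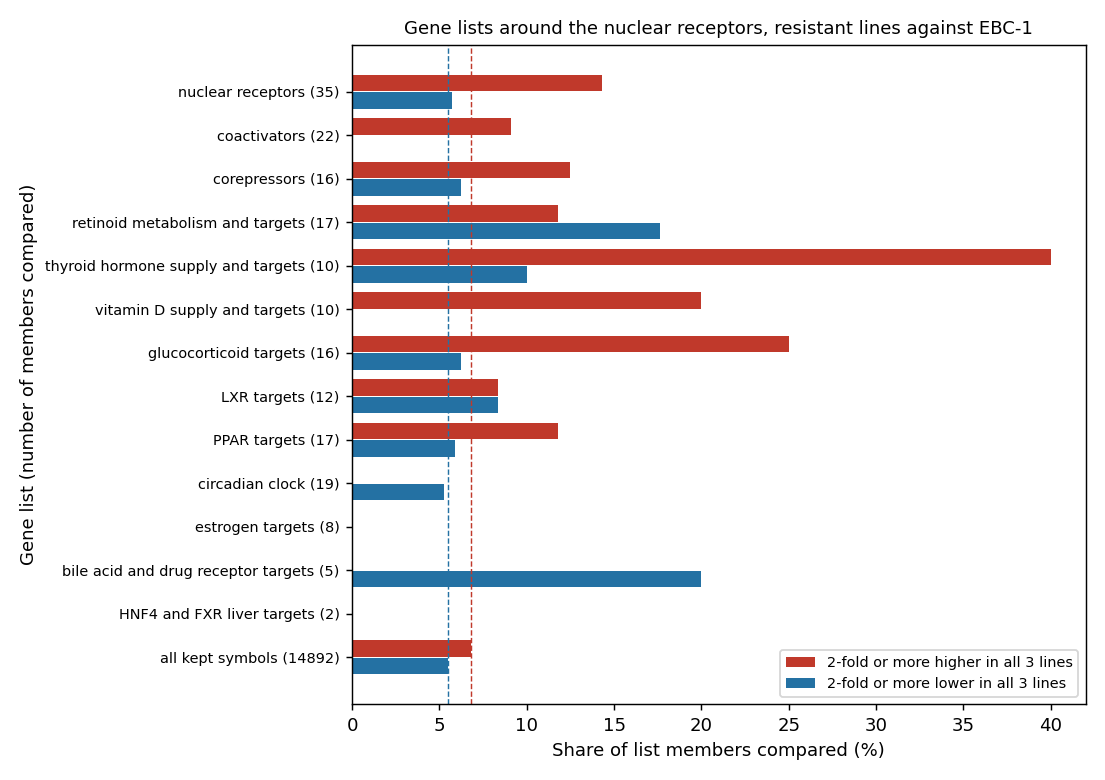
Share of the members of each gene list (y axis, number kept in brackets) that were 2-fold or more higher (red) or lower (blue) in all 3 resistant lines against EBC-1, with dashed lines at 6.79% and 5.5%, the shares over all 14892 symbols. The bar of higher genes is longest for the thyroid hormone list, at 40.0%, where it counts 4 of 10 genes.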

How the data were processed

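RNA was measured by 3′-end sequencing of 1 library per line. Bowtie2, edgeR and build hg19 are named in the submitters' processing notes, without roles or versions, and neither strand handling nor annotation is stated there. The authors deposited log2 values, 1 per symbol and library. After undoing log2(x + 1), all 4 libraries summed to 25.0 M units with nearly equal sorted values (largest difference 0.81 log2), a form that quantile normalization gives. This is inferred from the values, so overall differences in RNA amount are lost. They are not counts, so limma 3.58.1 (trended variance, R 4.3.3) was used in place of a count test. The contrast has 2 residual degrees of freedom. Reads were estimated from the 300 lowest distinct values and are approximate. Counting intervals are exact 95% Clopper-Pearson intervals and cover counting error only. They belong to the log2 ratio without a pseudocount, which lies apart from the printed difference for low genes (NR4A3 in CR1, 4.20 against 3.08). A library's depth sets these intervals, and 3 reads are worth 2.5 to 3.0 units. Differences use a pseudocount of 1 and understate those of low genes.

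The receptors and gene lists were chosen with earlier results of these data known, so none of the counts over them is independent support. The receptors described in full were those past limma, those 2-fold apart from EBC-1 in 1 direction in all 3 lines, those 2-fold apart in opposite directions, and those 4-fold apart between resistant lines. Up to 4 genes per list were named by the size of the smallest difference. Overlaps were read from GENCODE 29 on GRCh38, and promoter windows from RefSeq covered 40 of 45 receptors. On simulated data for 14892 genes, limma found 0% of 1000 genes set to a log2 fold of 2, 34% at 5 and 79.7% at 9, so smaller changes were mostly missed. Other steps ran in Python 3.11.15 with scipy 1.17.1, pandas 2.3.3, numpy 2.4.6 and matplotlib 3.10.9. Alternatives were a pseudocount of 5, no threshold or one of 50 units, centring on the median, limma without a trend, folds of 1.5 and 4, and leaving out each resistant line. The alternatives for SGK1 and the per-line counts over the 28 receptors were added after the data were seen.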

Additional observations from a re-analysis of the deposited data

Results flagged for a closer look

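NR1I3, the constitutive androstane receptor, differed from EBC-1 in opposite directions between the resistant lines. Its difference was -0.46 in CR1, 1.57 in CR2 and -4.63 in CR3, where it was listed at 0. NR5A2, a phospholipid-binding orphan receptor, differed by -3.39 in CR1, where it was listed at 0, by 0.067 in CR2 and by 2.07 in CR3. Of the 35 receptors, 2 went past 2-fold in opposite directions in a pair of lines, beside 3.24% of all symbols. With 1 library per line these differences between lines were not tested, and the number of reads behind both genes is small.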

How the results depend on the processing

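No paired analysis was possible because EBC-1 is 1 library, and the numbers of the resistant lines follow accession order. The symbols past limma, 25 higher and 1 lower, became 52 and 2 with a threshold of 50 units, 45 higher with median centring and 405 lower with no threshold. They became 0 and 0 without the variance trend, where 1494 symbols had an unadjusted p under 0.05, and 0 and 0 without any 1 resistant line, where 1117, 2476 and 775 did without CR1, CR2 and CR3. The 1 receptor past limma became 0 in those same settings, with 6 receptors at an unadjusted p under 0.05 without the trend and 7, 7 and 4 without CR1, CR2 and CR3. The cause was not tested.

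The 5 receptors higher in all 3 lines became 3 at 4-fold and ranged from 5 to 9 when a resistant line was left out, with 9 without CR1. Leaving out a line asks for 2-fold in the remaining lines only, so that count can stay or rise but not fall. Apart from the counts over the 28 receptors, shares over all symbols were not computed at the settings of this paragraph. The 2 lower receptors became 1 with a pseudocount of 5, with a threshold of 50 units and at 4-fold. In CR1 the 8 higher receptors became 5 at 4-fold, and the 4 lower became 2 at 4-fold and 2 with a threshold of 50 units. In CR2 the 13 higher became 5 at 4-fold and the 3 lower became 5 at 1.5-fold. In CR3 the 13 higher became 7 at 4-fold and 8 with a threshold of 50 units, and the 3 lower became 5 at 1.5-fold. Over the 28 receptors past the threshold in EBC-1, the higher receptors numbered 3 in all 3 lines, 5 in CR1 and 7 in CR3. The limma log2 fold of NR1I3, -1.17, ranged from -2.54 without CR2 to 0.56 without CR3, and that of NR5A2, -0.42, turned to 0.080 with a pseudocount of 5 and ranged from -1.66 without CR3 to 1.07 without CR1. Depth limits ESR2, NR4A3, ESRRG and the receptors listed at 0, whose reads are few.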

Other observations

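Among the 19 circadian clock genes kept, 0 were 2-fold or more higher and 1 was lower in all 3 resistant lines, against 6.79% and 5.5% of all symbols. PER3, a period gene, was at 8.03, 8.24 and 7.88 in CR1, CR2 and CR3, against 9.38 in EBC-1. The medians of the clock list were 0.26, -0.22 and 0.00. Estrogen targets gave 0 higher and 0 lower among 8 genes kept, with medians of -0.67, -0.40 and -0.99 in CR1, CR2 and CR3. TFF1, a target of the estrogen receptor in breast cells, was listed at 0 in all 4 libraries, CR2 and CR3 with ESR1 included, and was chosen after its values were seen. Of the 16 targets of the bile acid and drug receptors, 5 were kept, with 0 higher and 1 lower in all 3 lines (20.0%, against 5.5%). The lower gene, ABCC2, an exporter of conjugates, was at 2.95, 2.39 and 2.75 in CR1, CR2 and CR3, against 4.04 in EBC-1. ABCC2 passed the threshold only through EBC-1 and so had to be lower in the resistant lines. Of the 15 liver targets of HNF4 and NR1H4, 2 were kept, and neither was 2-fold apart from EBC-1 in 1 direction in all 3 lines.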
